A study of Mus musculus with 7 samples.

Results

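Microtubules are built from heterodimers of alpha-tubulin and beta-tubulin, and mammals carry several genes, called isotypes, for each partner. The 10 tubulin isotype genes described here were 3 alpha genes (Tuba1a, Tuba1b and Tuba1c) and 7 beta genes (Tubb2a, Tubb2b, Tubb3, Tubb4a, Tubb4b, Tubb5 and Tubb6), out of 50600 entries of a bulk RNA sequencing table and 15536 genes of a single-cell table from adult C57Bl6J mouse hippocampus. They were chosen by name as a family, with their difference between neural stem and progenitor cell (NSPC) cultures and whole dentate gyrus (DG) already known, so that difference is given below as a description. All 10 passed the filter on low counts in the bulk comparison and all 10 were detected in the single-cell table. In both tables most tubulin transcripts of cultured cells came from a few genes, and Tubb3 and Tubb4a were the lowest members in the bulk cultures.

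In the nervous system Tuba1a and Tubb2b are known as the main isotypes of young neurons, Tubb3 is used as a marker of neurons, and Tubb4a is best known from mature neurons and oligodendrocytes. Tuba1b, Tubb4b and Tubb5 are widely expressed and contribute to the mitotic spindle, and Tubb6 is a divergent beta isotype best known outside the brain. Tubulin transcripts are also controlled by their own product: when free tubulin is abundant, TTC5 recognises the first residues of nascent tubulin on the ribosome and the mRNA is degraded.

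The bulk libraries comprised 4 primary NSPC cultures (2 female, F1 and F2, and 2 male, M1 and M2), derived from DG of mice aged 6 to 8 weeks and kept at passages 6 to 15 on laminin in serum-free medium with 20 ng/ml epidermal growth factor and 20 ng/ml fibroblast growth factor 2. They were compared with whole DG of 2 mice aged 7 to 9 weeks, 1 female (F1) and 1 male (M2). A library of single cells mixed 3 such cultures (2 female, 1 male, mice aged 6 to 9 weeks) in equal cell numbers, and its cells cannot be assigned to a culture. All animals were of the same strain, with no genetic change or treatment stated in the labels.

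The sum of deposited counts ranged over the 4 cultures from 9917697 to 11747408, and whole DG F1 and M2 reached 16676618 and 17351636. The culture libraries were made with SMART-Seq HT and the whole DG libraries with NEBNext Ultra II Directional, so the kit cannot be told apart from the group in the bulk differences below. Nes, a stem cell filament gene, averaged 1216 ± 218.5 counts per 1000000 (CPM, scaled with TMM) in the cultures and 9.74 ± 0.189 CPM in whole DG (SD, n = 4 and 2). Of 10 stem and progenitor markers 7 were called higher and 3 lower in the cultures at an edgeR adjusted p under 0.05, as were 35.6% and 41.7% of all genes tested. The 10 neuron markers summed to between 45.6 and 52.1 CPM per culture, against 11319 and 10893 CPM in whole DG. Of 5 oligodendrocyte precursor markers 2 were called higher and 2 lower, and they summed to between 1738 and 3535 CPM per culture, against 198 and 177 CPM in whole DG. Olig1, a transcription factor of that lineage, averaged 2456 ± 685 CPM in the cultures and 74.0 ± 11.8 CPM in whole DG, while Sox10, another one, had 0 counts in every culture, against 336 and 286 counts in whole DG. The microglia marker C1qa and the endothelial marker Cldn5 had 0 counts in every culture, against between 304 and 522 counts in whole DG. The single-cell library held 14912 cells with a median of 4048.5 unique molecular identifiers (UMIs), in 6 clusters numbered 0 to 5 by the authors, with 0 repeated barcodes.

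The coding sequences show how far reads of one isotype can be told from those of another. Sequences are from GENCODE M21 transcripts on the mouse build GRCm38. With gaps counted as mismatches, the coding sequences of Tuba1a and Tuba1b match over 98.3% of aligned positions, Tuba1a and Tuba1c 97.1%, and Tuba1b and Tuba1c 97.9%. Tubb2a and Tubb2b match over 96.5%, while every other pair of beta members matches over between 80.1% and 86.0%. Most isotypes differ most at their carboxy-terminal tails, the acidic ends that modifying enzymes and motor proteins read. Tuba1a and Tuba1b do not, and match over 98.3% both in the last 60 coding bases and in the rest. The last 60 coding bases of 6 beta members are shown because they separate these members; capitals mark bases that do not match Tubb5 in an alignment.
Tubb5: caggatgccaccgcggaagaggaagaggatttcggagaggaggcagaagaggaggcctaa
Tubb2a: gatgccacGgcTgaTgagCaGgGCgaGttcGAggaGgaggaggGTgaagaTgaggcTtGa
Tubb2b: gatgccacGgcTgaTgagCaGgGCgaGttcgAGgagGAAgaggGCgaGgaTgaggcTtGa
Tubb3: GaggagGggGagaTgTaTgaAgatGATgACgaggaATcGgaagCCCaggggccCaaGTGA
Tubb4a: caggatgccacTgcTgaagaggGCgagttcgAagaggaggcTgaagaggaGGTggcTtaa
Tubb4b: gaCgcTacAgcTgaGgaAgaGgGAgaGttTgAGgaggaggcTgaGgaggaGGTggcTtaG
In the alignment of this stretch, gaps counted, Tubb3 and Tubb5 match over 54.4% of positions, and Tubb2a and Tubb2b over 95%.

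At the other end of the reading frame the members are nearly alike. The first 12 coding bases are shown because they encode the residues that TTC5 recognises; capitals mark the 3 codons after the start codon.
Tuba1a, Tuba1b and Tuba1c: atgCGTGAGTGC
Tubb2a: atgCGCGAGATC
Tubb2b: atgCGAGAGATC
Tubb3 and Tubb4b: atgAGGGAGATC
Tubb4a: atgCGGGAAATC
Tubb5: atgAGGGAAATC
The 3 alpha genes share 1 sequence and the 6 beta genes shown use 5.

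The similarity limits how far counts can be assigned to single alpha genes. Windows of 150 bases, the length of 1 read, occur in another annotated transcript for 54.7% of the Tuba1a windows, 57.9% of those of Tuba1b and 46.7% of those of Tuba1c. The share was 27.9% for Tubb2a and 20.1% for Tubb2b, in each case with the other gene of the pair, and 16.8% for Tubb4b, all with its pseudogene Tubb4b-ps1. It was 0 for Tubb3, Tubb4a, Tubb5 and Tubb6. Tuba1a and Tuba1b also share 26.2% and 22.7% of their exon bases with Gm49450, a gene model that spans both, and 5.80% of the Tubb4b exon bases lie under Fam166a on the other strand. The sources used here do not say how shared reads and strand were treated in counting, so the split between Tuba1a, Tuba1b and Tuba1c, and between Tubb2a and Tubb2b, is uncertain. Tuba1a (chr15:98949837-98953703), Tuba1b (chr15:98931425-98934565) and Tuba1c (chr15:99029891-99038110) are neighbours in the genome, as are Tubb2a (chr13:34074274-34078007) and Tubb2b (chr13:34126748-34130466).

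The 3 alpha isotypes were higher in the NSPC cultures than in whole DG. Tuba1a had 2697, 3086, 1891 and 2802 CPM in cultures F1, F2, M1 and M2, against 886 and 869.9 CPM in whole DG F1 and M2. Every culture lay above both whole DG libraries, with a ratio of means of 2.98 and a log2 difference of 1.58 ± 0.21 (SE of the edgeR fit, as below). Groups without overlap were common, found for 83.6% of all genes tested (38.6% with the cultures higher, 45% with the cultures lower), so nothing is read from them for the members. Tuba1b had 1251, 1391, 670.1 and 1266 CPM in the same cultures, against 577 and 516 CPM in whole DG (log2 difference 1.07 ± 0.28). The groups did not overlap, although culture M1 was close to whole DG F1. Tuba1c, a minor alpha isotype, had 292, 369.6, 226 and 360.1 CPM in the cultures, against 124 and 122 CPM in whole DG, with no overlap and a log2 difference of 1.35 ± 0.21. Because bulk tissue averages over its cells, fewer cells of a type and less RNA per cell cannot be told apart in these values.

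Among the beta isotypes, Tubb6 differed most between the groups. It had 501, 532, 286 and 378 CPM in cultures F1, F2, M1 and M2, against 5.75 and 4.99 CPM in whole DG, where it rested on 89 and 82 counts. The ratio of means was 79.0 and the log2 difference 6.30 ± 0.35, and every culture lay far above both tissue libraries. Tubb4b, a broadly expressed isotype that is also found in cilia, had 478, 641, 327 and 537 CPM in the cultures, against 202 and 177 CPM in whole DG (log2 difference 1.39 ± 0.26). Its pseudogene Tubb4b-ps1, looked up because of the shared windows, averaged 21.5 ± 4.62 CPM in the cultures and 6.86 ± 1.31 CPM in whole DG. Tubb5, known as the major beta isotype of dividing cells, had 859, 877, 511.5 and 855 CPM in the cultures, against 393 and 369 CPM in whole DG (log2 difference 1.03 ± 0.23). Neither gene's groups overlapped, and culture M1 was the lowest culture for both.

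Tubb2a and Tubb2b, the pair of closely related brain isotypes, differed least. Tubb2a had 1061, 1015, 880.2 and 869.95 CPM in cultures F1, F2, M1 and M2, against 777 and 709 CPM in whole DG, a ratio of means of 1.29 and a log2 difference of 0.36 ± 0.14. Tubb2b had 565, 507, 453 and 505 CPM in the cultures, against 442 and 413 CPM in whole DG, a ratio of means of 1.19 and a log2 difference of 0.25 ± 0.13. The groups were separated for both genes, by a margin smaller than the spread among the cultures.

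Tubb3 and Tubb4a were the members lower in culture. Tubb3 had 13.1, 7.72, 11.4 and 24.2 CPM in cultures F1, F2, M1 and M2, against 169 and 157 CPM in whole DG, where the mean was 11.6 times the culture mean (log2 difference -3.53 ± 0.36). Tubb4a had 26.5, 24.6, 26.4 and 39.3 CPM in the cultures, against 385 and 343 CPM in whole DG, where the mean was 12.5 times the culture mean (log2 difference -3.64 ± 0.19). For both genes culture M2 was the highest culture and still far below either tissue library. The neuron markers moved the same way, with sums that were lower in every culture as given above, and all 10 of them were called lower at an edgeR adjusted p under 0.05, as were 41.7% of all genes tested. Oligodendrocyte markers, among which Mbp had 0, 0, 3 and 2 counts in the cultures against 10081 and 9094 counts in whole DG, summed to between 93.9 and 145 CPM per culture, most of it Cnp (119 ± 21.1 CPM), against 1594 and 1289.5 CPM in whole DG. The part of cell composition in the Tubb3 and Tubb4a differences was not tested.

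**Figure D1:**
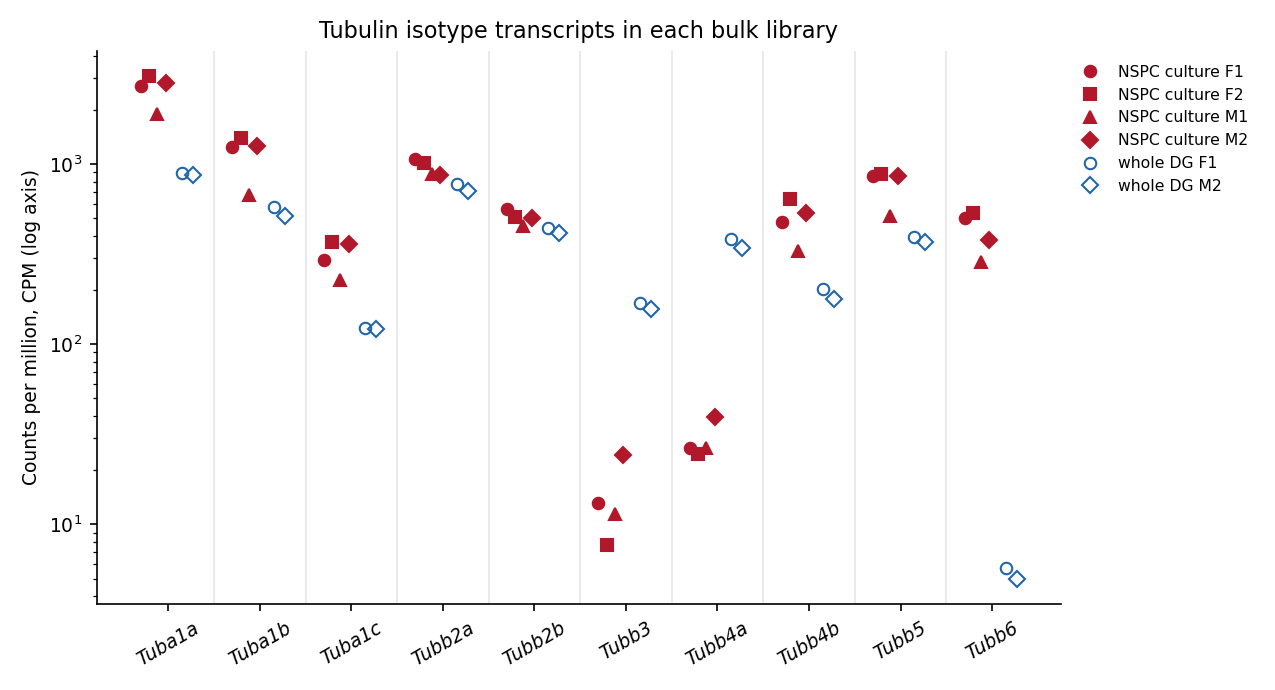
CPM on a log axis for the 10 tubulin isotype genes, with each of the 4 NSPC cultures as a filled red symbol and each of the 2 whole DG libraries as an open blue symbol. Tubb6 is 79.0 times as high in the culture mean as in whole DG, Tubb3 and Tubb4a lie far lower in every culture, and no gene's groups overlap (83.6% of all genes tested had groups without overlap).

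Set against the whole table, 7 of the 10 members passed an edgeR adjusted p under 0.05 as higher in the cultures, 2 as lower, and Tubb2b did not pass, while 77.3% of the 18088 genes tested were called (35.6% higher, 41.7% lower in the cultures). Tubb2a was no longer called without culture F1, culture F2, whole DG F1 or whole DG M2, Tuba1b without whole DG M2, and Tubb2b was called without culture M1. The median log2 difference was 1.05 over the members and -0.13 over all genes tested. The members were chosen by name with this contrast known, and nothing is read from their count. In total the 10 genes took 7743, 8451, 5283 and 7636 CPM in cultures F1, F2, M1 and M2, against 3959.5 and 3681 CPM in whole DG.

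Levels of different isotypes were compared as CPM per kb of exon. In the cultures the order by mean was Tuba1a (1453 ± 284), Tuba1b (610.4 ± 172), Tubb2a (594 ± 59.6), Tubb4b (237 ± 62.8), Tubb5 (233 ± 53.0), Tubb2b (221 ± 19.9), Tubb6 (174 ± 46.5), Tuba1c (136 ± 29.2), Tubb4a (13.1 ± 3.05) and Tubb3 (7.54 ± 3.80), all as CPM per kb (SD, n = 4). Tuba1a stood above all others in every culture, and so did Tubb2a above Tubb4b. The ranges of Tuba1b and Tubb2a overlapped, as did those of each neighbouring pair from Tubb4b down to Tuba1c, and those of Tubb4a and Tubb3. In whole DG the order by mean was Tuba1a (487 ± 6.43), Tubb2a (462 ± 29.998), Tuba1b (291 ± 23.0), Tubb2b (186 ± 8.77), Tubb4a (163 ± 13.2), Tubb5 (115 ± 5.08), Tubb4b (90.8 ± 8.23), Tubb3 (87.2 ± 4.38), Tuba1c (53.6 ± 0.652) and Tubb6 (2.20 ± 0.22), all as CPM per kb (SD, n = 2). There the neighbours Tuba1a and Tubb2a overlapped, as did Tubb4b and Tubb3. Tubb4a was thus ninth of the family in the cultures, against the fifth place in whole DG, and Tubb6 seventh in the cultures, against the last place in whole DG.

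The balance of alpha to beta transcripts differed as well. Summed over the members, alpha to beta ratios of CPM per kb were 1.42, 1.58, 1.26 and 1.63 in cultures F1, F2, M1 and M2, against 0.739 and 0.767 in whole DG. The alpha sum exceeded the beta sum in every culture and fell short of it in both tissue libraries. In the single cells, on the scale of UMIs, the alpha to beta ratio was 0.553 over all cells and between 0.451 and 0.674 per cluster, so alpha did not exceed beta in cultured cells by that assay. Within the beta isotypes, Tubb6 made up 11.6% ± 1.60 of the per-kb total in the cultures and 0.199% ± 0.00731 in whole DG (SD, n = 4 and 2). Tubb4a made up 0.902% ± 0.248 in the cultures and 14.8% ± 0.264 in whole DG, and Tubb3 0.52% ± 0.268 in the cultures and 7.89% ± 0.102 in whole DG. Tubb4b took 15.9% ± 2.61 in the cultures and 8.20% ± 0.226 in whole DG, and Tubb5 15.6% ± 1.95 in the cultures and 10.4% ± 0.196 in whole DG. Without division by length the Tubb5 shares were 24.0% in the cultures and 16.8% in whole DG. Tubb2a kept a share of 40.4% ± 3.99 in the cultures and 41.7% ± 0.074 in whole DG, and it was the only beta isotype whose libraries overlapped between the groups. Over all single cells Tubb5 took 37.6% of beta UMIs, Tubb2b 23.7%, Tubb2a 18.4%, Tubb4b 16.8% and Tubb6 3.27%. The order of beta shares in cultured cells thus differed between the assays, which have no common scale. Among the listed alpha isotypes Tuba1a made up 66.4% ± 2.20 in the cultures and 58.6% ± 1.34 in whole DG. Tuba1b made up 27.4% ± 2.45 in the cultures and 34.99% ± 1.499 in whole DG, subject to the shared reads described above. Tuba4a, an alpha isotype outside the list, averaged 1.02 CPM per kb in the cultures and 117 CPM per kb in whole DG. It is not counted in these alpha shares or in the alpha to beta ratios.

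**Figure D2:**
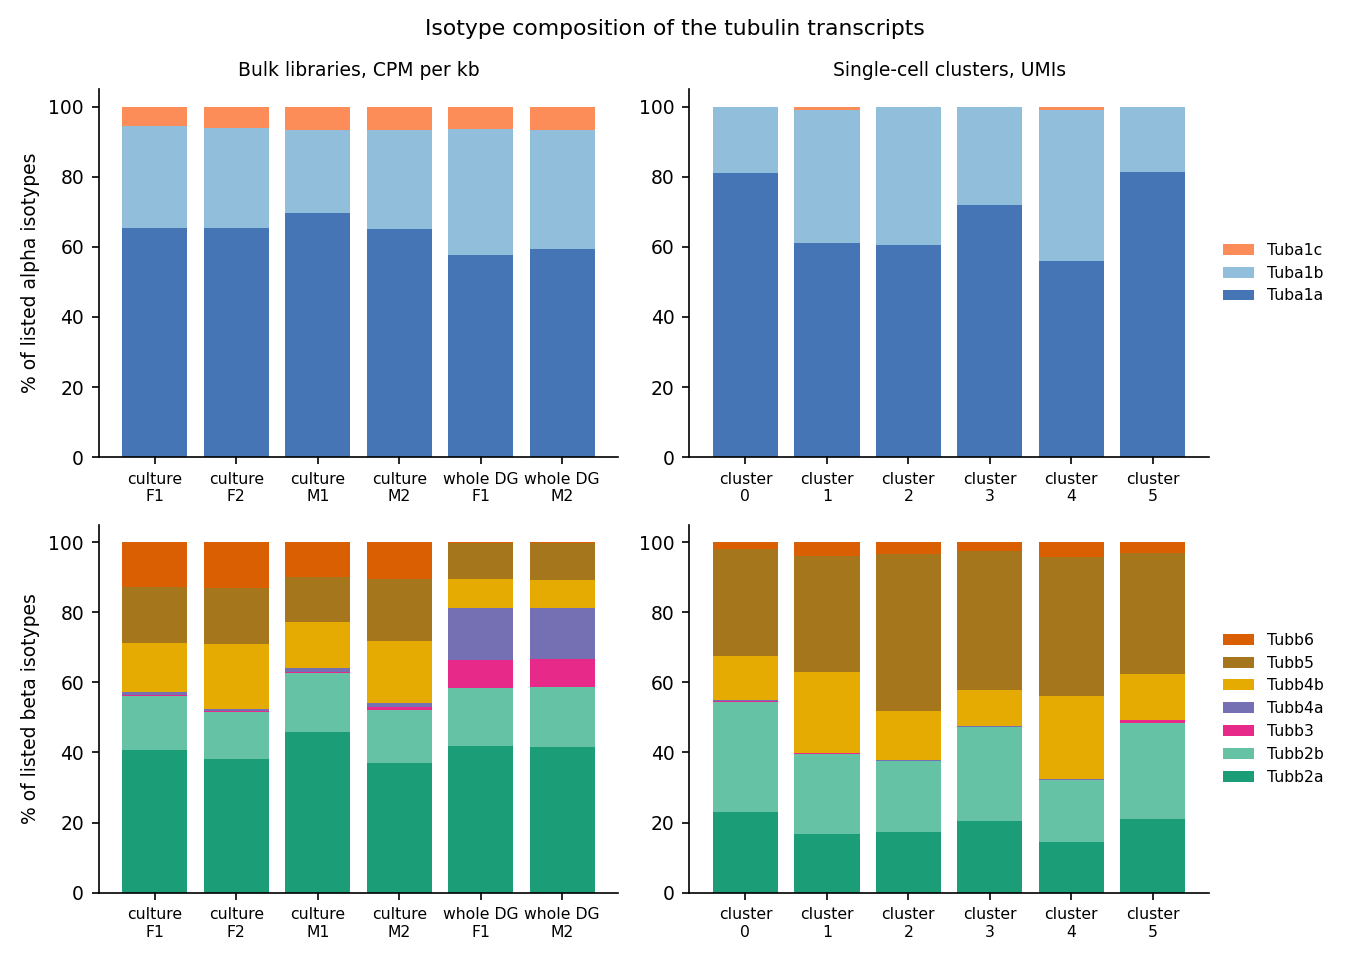
Stacked bars of each isotype as a percentage of the listed alpha (top) and beta (bottom) isotypes, in the bulk libraries as CPM per kb of exon (left) and in the single-cell clusters as UMIs (right). Tubb3 and Tubb4a are wide bands in the whole DG bars and thin ones elsewhere, and Tubb6 is a wide band in the culture bars. The bulk and single-cell scales differ.

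The cultures did not carry equal amounts of tubulin transcript. Culture M1 was the lowest culture for 7 of the 10 members (Tuba1a, Tuba1b, Tuba1c, Tubb2b, Tubb4b, Tubb5 and Tubb6), whereas it was the lowest for 27.7% of the 17637 genes with a count in every culture. The highest culture was 2.08 times the lowest for Tuba1b, 1.96 times for Tubb4b, 1.86 times for Tubb6 and 1.71 times for Tubb5, but 1.22 times for Tubb2a and 1.25 times for Tubb2b. Tubb3 had the widest spread, 3.14 times, and its lowest culture was F2. The 12 G2/M marker genes, transcribed before and during mitosis, summed to 2003, 2487, 1101 and 2047 CPM in cultures F1, F2, M1 and M2, and each of the 12 was lowest in M1. The 12 S phase markers summed to 2831, 3042, 2135 and 2625 CPM in the same cultures, again with each gene lowest in M1. The part of proliferation in the M1 values was not tested. Without culture M1 the log2 difference from whole DG was 1.26 for Tuba1b, 1.55 for Tubb4b, 1.19 for Tubb5 and 6.46 for Tubb6, and Tubb2b passed the threshold, which made 8 members higher.

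**Figure D3:**
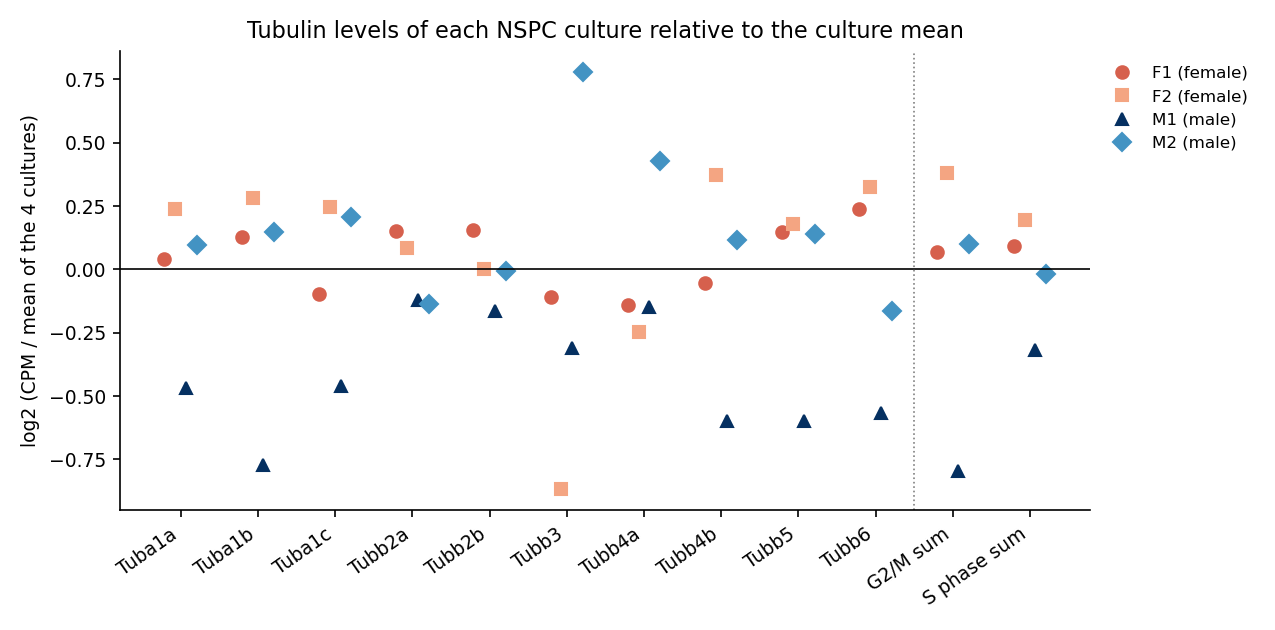
The log2 ratio of each culture's CPM to the mean of the 4 cultures, for the 10 tubulin isotype genes and for the summed G2/M and S phase marker lists. Culture M1 (dark triangles) is lowest for 7 of the 10 genes and for both marker sums, while Tubb3 and Tubb4a are highest in culture M2.

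Whether tubulin levels differed between female and male cultures was tested in the 4 cultures, a contrast the choice of members is not known to have used. No member passed an edgeR adjusted p under 0.05, against 0.0264% of the 15140 genes tested (4 genes, 1 higher and 3 lower in females). That count rested on single cultures, with 38 higher and 43 lower without culture F1, 4 and 9 without F2, and 2 and 2 without M1. For the members, 1 of the 10 had an unadjusted p under 0.05 (Tubb6), against 6.22% of all genes tested, and DESeq2 called none of them. Tubb6 averaged 516 CPM in the female cultures and 332 CPM in the male cultures, and both female cultures lay above both male ones (log2 difference 0.63 ± 0.18, edgeR adjusted p = 0.746). Tubb3 averaged 10.4 CPM in the female cultures and 17.8 CPM in the male cultures, with overlapping values (log2 difference -0.78 ± 0.44, edgeR adjusted p = 0.825). With 2 cultures of each sex, neither difference passed the threshold after adjustment over all genes tested.

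In the single-cell library the isotypes varied unequally across the 6 clusters. The clusters were made by the authors from the expressed genes, tubulins among them, and a single library has no replicate, so the differences are descriptive and the 95% intervals (exact Poisson for levels, exact binomial for shares of cells) cover counting error only. The 10 members together took 0.542% of all UMIs, and 2 of the 14912 cells had no member UMI. Free RNA can also give UMIs, and its share was not measured here. Tubb5 and Tuba1a were the most abundant at 1310 and 1303 UMIs per 1000000 UMIs (UPM), ranks 121 and 122 of the 15536 genes. Tubb2b (826), Tubb2a (641), Tuba1b (618) and Tubb4b (587 UPM) followed, all within the top 228 ranks. Tubb6 stood at 114 UPM, with a UMI in 34.9% of cells. Tuba1c (8.70), Tubb3 (6.79) and Tubb4a (3.51 UPM) were rare, with UMIs in 3.31%, 2.64% and 1.42% of cells.

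The level of Tuba1c set against its relatives was unlike that in bulk. In bulk cultures Tuba1c averaged 136 CPM per kb against 1453 CPM per kb for Tuba1a, and it made up 6.23% ± 0.481 of the alpha per-kb total. In the single cells it made up 0.451% of alpha UMIs. The assays have no common scale, and the part of the shared reads in this difference was not tested.

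Tubulin totals were highest in the clusters with the most G2/M markers. The members took 0.684% of UMIs in cluster 4 and 0.603%, 0.570% and 0.493% in clusters 1, 2 and 3, against 0.467% and 0.393% in clusters 0 and 5. G2/M markers summed to 7176 UPM in cluster 4, to 2793, 3389 and 895 UPM in clusters 1, 2 and 3, and to 400 and 323 UPM in clusters 0 and 5. Clusters 1, 2 and 4 were thus high in both, with clusters 1 and 2 in the opposite order. S phase markers followed another order, with 1514, 1194, 684 and 511 UPM in clusters 2, 3, 4 and 1. Sequencing depth differed too, with cluster medians between 3431 and 5270.5 UMIs per cell. Thinning each cell to 2000 UMIs kept the highest cluster of each member and changed the lowest one for Tubb4b alone, to cluster 5. Random thinning keeps the expected share of each gene in a cell, so it cannot show the part of depth, which was not tested.

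Among the members found in at least 20% of cells, Tuba1b, Tubb4b, Tubb5 and Tubb6 had the largest ratios of highest to lowest cluster, Tubb6 at a low level. Tuba1b had 913 UPM in cluster 4 (95% interval 892 to 935), against 275 in cluster 5 (260 to 291), a ratio of 3.32. Tubb4b had 1125 UPM in cluster 4 (1101 to 1150) and 911 in cluster 1, against 316 in cluster 3 (304 to 328), a ratio of 3.57. Clusters 5 and 0 were close to cluster 3, at 320 and 351 UPM. Tubb5 had 1870 UPM in cluster 4 (1839 to 1901), 1689 in cluster 2 and 1198 in cluster 3, against 842 in cluster 5 (815 to 869), a ratio of 2.22. Tubb6 had 196 UPM in cluster 4 (186 to 206), against 59.3 in cluster 0 (55.4 to 63.3), a ratio of 3.31. Tuba1c, though rare, had 21.4 and 20.5 UPM in clusters 1 and 4, against 1.31 to 4.10 in the other clusters. Its 6 UMIs in cluster 5 give that value an interval of 0.482 to 2.86.

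Tuba1a, Tubb2a and Tubb2b varied less by that ratio. Tuba1a was highest in cluster 0 (1526 UPM) and lowest in cluster 2 (1162), a ratio of 1.31, and so did not share the cluster 4 maximum of its neighbour Tuba1b. Tubb2a lay between 518 UPM in cluster 5 and 680.5 in cluster 4. Tubb2b lay between 665 UPM in cluster 5 and 902 in cluster 1. Tuba1a made up 81.1% and 81.3% of alpha UMIs in clusters 0 and 5, against 56.0% in cluster 4, where Tuba1b took 43.0%. Among beta UMIs Tubb4b took 23.9% in cluster 4 and 10.4% in cluster 3, Tubb5 took 44.8% in cluster 2 and 30.4% in cluster 0, and Tubb2b took 31.5% in cluster 0 and 17.7% in cluster 4.

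Tubb3 was the only member with its highest level in cluster 5. It had 22.5 UPM in cluster 5 (18.4 to 27.3), against 3.50 to 6.81 in clusters 0 to 4. In cluster 5, 94 of 1092 cells (8.61%, 7.01 to 10.4) held a Tubb3 UMI, against 1.75% to 2.67% of cells in the other clusters. After thinning the shares were 3.85% in cluster 5 and 0.63% to 1.38% in the other clusters, and the median depth of cluster 5 (4086 UMIs) was not the highest. Neuron markers summed to 24.9 UPM in cluster 5, against 19.5 to 24.9 in the other clusters, and immature neuron markers to 272 in cluster 5, against 293 to 428 in the other clusters. Tubb3 was therefore high in a cluster whose neuron marker sum was close to that of cluster 3. The immature neuron marker sum was the lowest there, but it came mostly from Sox11 (266 of 359 UPM over all cells). Sox11 had 175 UPM in cluster 5, against 208 to 332 in the other clusters, so the sum says little about the rest of that list. Of 9 immature neuron markers with UMIs, 1 was highest and 4 were lowest in cluster 5. Of 9 neuron markers with UMIs, 3 were highest in cluster 5: Prox1 (15.3 UPM, against 10.9 to 14.8 elsewhere), Gad1 (4.38 UPM, against 1.87 to 3.37) and Gad2, on 1 UMI. The intervals overlapped, for Prox1 with 11.9 to 19.4 in cluster 5 and 12.7 to 17.2 in cluster 1. For Gad1 they were 2.67 to 6.76 in cluster 5 and 2.51 to 4.44 in cluster 0. Rbfox3 and Syt1 were lowest there, on a single UMI each (0.219 UPM, against 1.19 to 2.35 elsewhere for Rbfox3 and 0.269 to 1.06 for Syt1). Of 15 neuronal microtubule-associated genes with UMIs, 4 were highest and 3 lowest in cluster 5. The list summed to 754 UPM there, against 814 UPM in cluster 0 and 610 to 699 UPM in clusters 1 to 4. Map1b (138.5 UPM in cluster 5, 69.2 to 86.4 elsewhere) and Stmn3 (51.0 in cluster 5, 30.03 to 32.2 elsewhere) were among the highest, whereas Map2 (211.8 in cluster 5, 221 to 286 elsewhere) and Map1a (9.19 in cluster 5, 11.05 to 23.0 elsewhere) were lowest there. These genes were chosen after their values were seen. Tubb4a lay between 2.02 UPM in cluster 4 and 5.29 in cluster 0, with intervals that overlapped for most pairs of clusters.

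**Figure D4:**
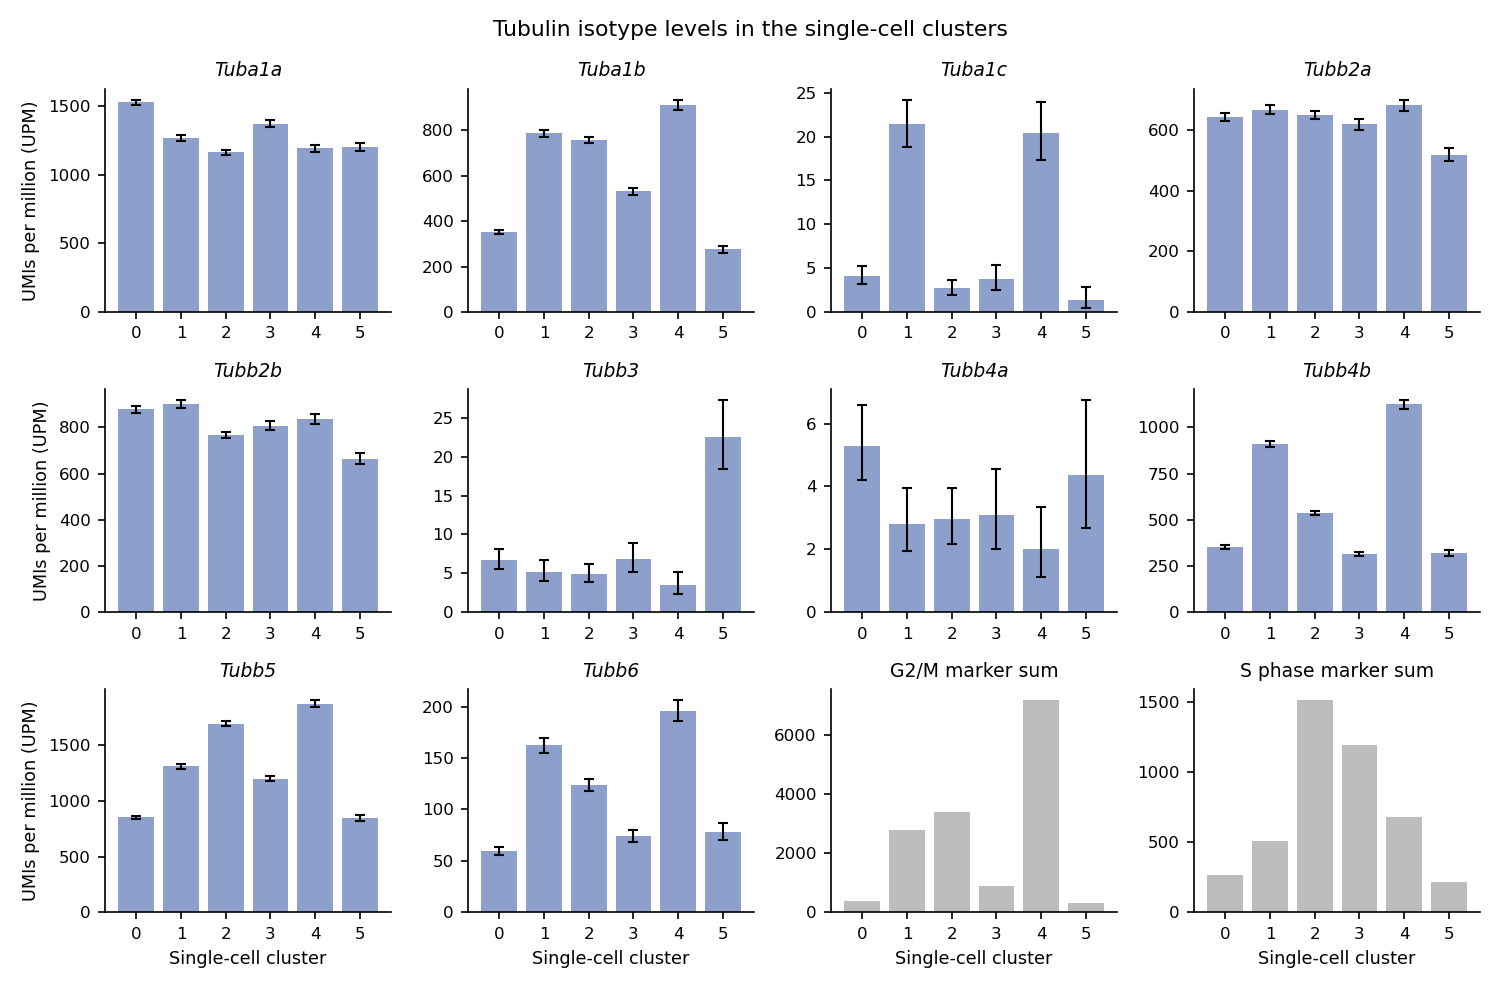
UPM of each tubulin isotype gene in single-cell clusters 0 to 5, with 95% exact Poisson intervals that cover counting error only, and the summed G2/M and S phase markers in grey. Tuba1b, Tubb4b, Tubb5 and Tubb6 peak in cluster 4 with the G2/M sum, Tuba1c is high in clusters 1 and 4, and Tubb3 is highest in cluster 5.

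Across the 14912 cells, which share 1 library and differ in depth, correlations of the natural log values were computed, given as descriptions. Tuba1b correlated with Tubb5 at r = 0.305 and with Tubb4b at r = 0.275, but with its near-identical neighbour Tuba1a at r = 0.00849. After cluster means were subtracted these values were 0.126, 0.107 and 0.0624. Tuba1a correlated most with Tubb2b among the members (r = 0.169). The alpha and beta sums correlated at r = 0.289, and at r = 0.239 after cluster means were subtracted. The genes most like Tuba1b were H2afz (r = 0.433), Hmgb2 (0.384) and Ptma (0.336), which encode chromatin and nuclear proteins of growing cells. Those most like Tubb4b were Cenpa (0.395), Cenpf (0.378) and Cdc20 (0.367), genes of the kinetochore and of mitotic exit, and those most like Tubb5 were Hmgb2 (0.379), Top2a (0.347) and Pclaf (0.346). Tubb6 was most like Cenpf (r = 0.220), Hmgb2 (0.216) and Cenpa (0.214). With cluster means subtracted these values were much smaller, between 0.0465 and 0.212 over these 4 members. Tuba1a was most like Ckb (r = 0.195), Ptn and Fabp7, Tubb2b most like Fabp7 (r = 0.152), Ptn and Dbi, and Tubb2a most like Mt3 (r = 0.146), Fabp7 and Igfbp2. Fabp7, a fatty acid binding protein of radial glia, was shared by all of the last 3 members, and its values changed little when cluster means were subtracted (Fabp7 with Tubb2b, r = 0.143).

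The promoters of Tubb4b and Tubb5, which were high in the clusters with G2/M markers, and of Tubb4a, the beta isotype with the fewest UMIs, are shown because CCAAT boxes and the cell cycle homology region (CHR) are known from promoters of genes transcribed in G2 and mitosis. Each is the 250 bases before the RefSeq start on its coding strand (build GRCm38.p6), and capitals mark CCAAT (or ATTGG) and TTTGAA or TTCGAA on either strand.
Tubb4b (chr2:25224703-25224952, minus strand): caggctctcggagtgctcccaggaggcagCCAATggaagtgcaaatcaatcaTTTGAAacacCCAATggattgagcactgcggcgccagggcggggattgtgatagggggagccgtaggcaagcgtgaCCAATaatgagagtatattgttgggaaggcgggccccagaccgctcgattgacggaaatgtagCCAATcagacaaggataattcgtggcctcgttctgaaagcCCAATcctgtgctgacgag
Tubb5 (chr17:35838302-35838551, minus strand): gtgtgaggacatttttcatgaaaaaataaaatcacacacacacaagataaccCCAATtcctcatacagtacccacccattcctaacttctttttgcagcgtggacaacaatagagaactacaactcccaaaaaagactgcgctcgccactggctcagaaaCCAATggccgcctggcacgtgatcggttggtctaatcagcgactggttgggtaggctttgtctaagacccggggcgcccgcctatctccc
Tubb4a (chr17:57087601-57087850, minus strand): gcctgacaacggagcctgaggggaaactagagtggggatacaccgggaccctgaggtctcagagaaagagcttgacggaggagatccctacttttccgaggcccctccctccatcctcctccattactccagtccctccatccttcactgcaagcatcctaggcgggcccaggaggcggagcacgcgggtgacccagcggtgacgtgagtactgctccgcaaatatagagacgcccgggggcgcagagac
Tubb4b held 5 CCAAT boxes and 1 CHR element, with no overlap between them. Tubb5 held 2 CCAAT boxes and Tubb4a none, and neither held a CHR element. Tuba1b, which also was highest in cluster 4, held no CCAAT box and no CHR element, and Tubb3, which was lowest in cluster 4, held 1 CCAAT box. Of 8 members with an entry used, 5 held a CCAAT box within 300 bases (250 before to 50 after the start), against 37.9% of 27025 RefSeq promoters, and 1 held a CHR element, against 19.4%. At least 5 CCAAT boxes occurred in 77 of the 27025 promoters (0.285%). GGGCGG was found in 6 of the 8 members, against 35.9% of promoters, and TATAAA in 2 of the 8, against 14.2%. These are matches of letters and not binding sites.

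Of 10 other tubulin genes listed, 6 had enough counts to test, and all 6 were called between cultures and whole DG, 3 higher and 3 lower, against 77.3% of all genes tested. Tuba4a, an alpha isotype of mature neurons and muscle, averaged 3.77 ± 0.853 CPM in the cultures and 435 ± 19.6 CPM in whole DG (SD, n = 4 and 2), a log2 difference of -6.85 ± 0.19 (edgeR adjusted p = 7.74e-08). Every culture lay far below both tissue libraries. Tuba8, another alpha isotype, averaged 0.624 ± 0.297 CPM in the cultures and 6.53 ± 2.36 CPM in whole DG (log2 difference -3.36). Both genes of gamma-tubulin, which nucleates microtubules, were called in opposite directions. Tubg1 averaged 145 ± 26.7 CPM in the cultures and 37.2 ± 2.24 CPM in whole DG (log2 difference 1.97 ± 0.20, edgeR adjusted p = 4.28e-05). Tubg2 averaged 4.21 ± 0.322 CPM in the cultures and 31.8 ± 0.543 CPM in whole DG (log2 difference -2.92 ± 0.18, edgeR adjusted p = 2.03e-06). Tube1 and Tubd1, the epsilon- and delta-tubulins of centrioles, averaged 12.5 and 14.3 CPM in the cultures and 2.54 and 5.80 CPM in whole DG (log2 differences 2.30 and 1.30). Tuba3a, Tuba3b and Tubal3 had at most 6 counts in any library and Tubb1 had 0 in all.

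Genes that fold tubulin were mostly higher in the cultures. CCT, the chaperonin in which newly made tubulin folds, had all 8 subunits called higher, with a median log2 difference of 1.53 (35.6% of all genes tested were called higher, with a median over all genes of -0.13). Cct8, the highest of them by CPM in the cultures, averaged 659 ± 67.7 CPM there and 193 ± 12.0 CPM in whole DG, and Cct3 differed most (620 ± 80.6 CPM in the cultures, 144 ± 2.82 CPM in whole DG, log2 difference 2.11 ± 0.16, edgeR adjusted p = 7.66e-06). Cct5, the highest by CPM in whole DG, averaged 654 ± 90.6 CPM in the cultures and 235 ± 7.47 CPM in whole DG. Of 13 genes of prefoldin, which delivers tubulin to CCT, and of the cofactors that assemble the heterodimer, 8 were called higher, 2 lower and 3 did not pass (median log2 difference 0.51). The prefoldin gene Vbp1 averaged 121 ± 10.6 CPM in the cultures and 49.6 ± 4.75 CPM in whole DG, and Pfdn5 fell to 73.1 ± 8.32 CPM in the cultures, against 104 ± 2.18 CPM in whole DG. Tbcel, a cofactor E-like protein that destabilises tubulin, differed most in the list and was the other gene called lower (14.9 ± 2.13 CPM in the cultures, 86.0 ± 3.07 CPM in whole DG).

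Of the gamma-tubulin ring complex and its recruiters, 12 of 17 genes were called higher and none lower (median log2 difference 1.71). Over all genes tested 35.6% were called higher and 41.7% lower. Nedd1, which anchors the complex at centrosomes, averaged 65.3 ± 9.38 CPM in the cultures and 2.79 ± 0.0731 CPM in whole DG (log2 difference 4.55 ± 0.22, edgeR adjusted p = 6.61e-07). Cdk5rap2, another centrosomal recruiter, averaged 137 ± 21.2 CPM in the cultures and 42.0 ± 0.577 CPM in whole DG. Mzt1, a small subunit, was among the 5 that did not pass (68.7 ± 10.0 CPM in the cultures, 90.6 ± 12.0 CPM in whole DG).

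Microtubule-associated proteins separated by role. All 18 neuronal ones were called lower in the cultures (41.7% of all genes tested were called lower), with a median log2 difference of -5.27. Map2, a dendritic protein, had the highest CPM of the list in the cultures, 818 ± 80.4 CPM, against 1203 ± 118 CPM in whole DG. Map1b, an axonal protein and the highest by CPM in whole DG, averaged 161 ± 32.9 CPM in the cultures and 1530 ± 26.0 CPM in whole DG. Stmn2, a neuronal stathmin that binds tubulin dimers, had 0, 0, 4 and 0 counts in cultures F1, F2, M1 and M2, against 3491 and 2848 counts in whole DG. Of 25 spindle motors and associated proteins, 23 were called higher (35.6% of all genes tested were called higher), none lower, and the median log2 difference was 5.29. Kif2c, a microtubule depolymerase of mitosis, averaged 81.8 ± 30.8 CPM in the cultures and 0.253 ± 0.0992 CPM in whole DG (log2 difference 8.29 ± 0.64, edgeR adjusted p = 8.10e-06). Mapre1, a plus-end protein and the highest of the list by CPM in the cultures, averaged 365 ± 25.7 CPM in the cultures and 89.9 ± 7.42 CPM in whole DG. Ckap5, the microtubule polymerase, did not pass (227 ± 20.7 CPM in the cultures, 195 ± 4.94 CPM in whole DG). The 12 G2/M markers were all called higher, with sums between 1101 and 2487 CPM per culture, against 26.5 and 27.6 CPM in whole DG, and the part of proliferation in the spindle gene values was not tested.

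Of 26 listed enzymes that modify tubulin, 23 were tested, of which 9 were called higher, 8 lower and 6 did not pass (median log2 difference 0.18). Over all genes tested 35.6% were called higher and 41.7% lower, so these counts were near the background. Agbl5, a deglutamylase, averaged 89.8 ± 4.92 CPM in the cultures and 23.0 ± 2.53 CPM in whole DG. Agtpbp1, the deglutamylase lost in Purkinje cell degeneration mice, averaged 24.3 ± 3.72 CPM in the cultures and 273 ± 31.6 CPM in whole DG. Ttll11, a polyglutamylase, differed most (1.36 ± 0.955 CPM in the cultures, 47.8 ± 2.73 CPM in whole DG, log2 difference -5.16 ± 0.45, edgeR adjusted p = 1.52e-05). Of the 3 autoregulation genes, Ttc5 did not pass (53.9 ± 11.1 CPM in the cultures, 46.5 ± 5.53 CPM in whole DG, log2 difference 0.21 ± 0.21, edgeR adjusted p = 0.368). Scaper, which links TTC5 to mRNA decay, was called lower (10.8 ± 2.77 CPM in the cultures, 47.0 ± 5.08 CPM in whole DG), and Cnot1, the scaffold of the deadenylase complex, higher (188 ± 7.14 CPM in the cultures, 151 ± 0.559 CPM in whole DG). In the single cells Ttc5 lay between 18.8 UPM in cluster 5 (15.1 to 23.2) and 25.3 in cluster 1 (22.5 to 28.3), with overlapping intervals. Its relative range was narrower than that of Tuba1b, Tubb4b or Tubb5 and close to that of Tuba1a, Tubb2a or Tubb2b.

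**Figure D5:**
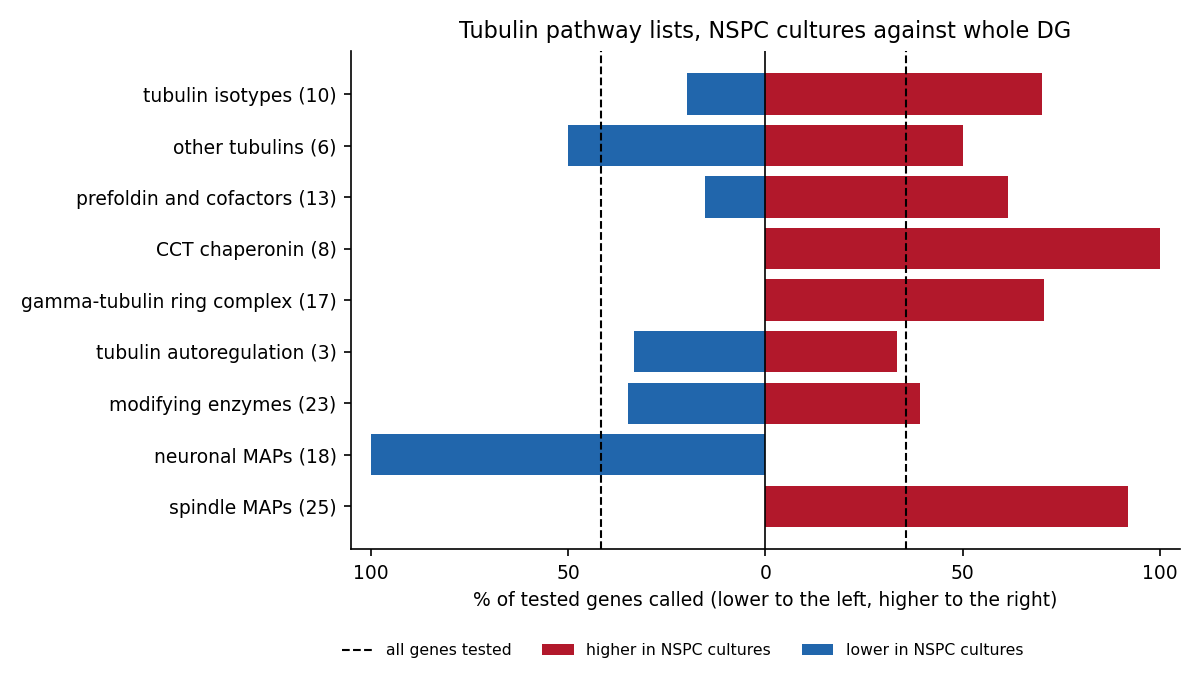
Percentage of the tested genes of each list called higher (red, right) or lower (blue, left) in NSPC cultures than in whole DG at an edgeR adjusted p under 0.05, with the number tested in brackets and the share over all genes tested as dashed lines (35.6% higher, 41.7% lower). All 8 CCT genes are higher and all 18 neuronal microtubule-associated genes lower, while modifying enzymes are called in both directions.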

How the data were processed

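Transcripts were measured by bulk RNA sequencing of 4 NSPC cultures and 2 whole DG, and by 1 single-cell library. The bulk table held raw counts per gene as deposited by the authors, with all columns matched to a sample and 0 left unmapped. Tools listed in the submitters' processing notes are HISAT2 2.0.6, featureCounts, Subread and CASAVA 1.8.2, with the human build GRCh38, although the symbols are mouse symbols. The single-cell table held natural log values deposited by the authors, ln(1 + UMIs per 10000), with the authors' cluster in each cell name. The submitters' processing notes name Cell Ranger 3.1.0 and Seurat 3.1.0, and the labels' protocol other versions.

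The robust quasi-likelihood test of edgeR 4.0.16 (R 4.3.3) was fitted to all genes past its default filter, with TMM scaling, group as the only term and a threshold of 0.05 on the Benjamini-Hochberg adjusted p. The labels describe separate cultures, and p-values therefore reflect variation among cultures and among 2 animals. CPM use TMM library sizes. UMIs were recovered from the log values with 100% within 0.01 of a whole number. No cell was removed, no doublet caller was run and clusters were not named. Alternatives were DESeq2 1.42.0 and its size factors, upper quartile scaling, other filters, a test against a 2-fold difference, each library left out, a replicate block, thinning to 2000 UMIs and leaving out cells over 20% mitochondrial UMIs. The fits were checked on simulated counts. The members, the 18 other gene lists, their tests and the naming rule were chosen with earlier results of these data known. The rule named all members, every testable other tubulin, and from each list the gene highest in cultures, the gene highest in whole DG and the called gene with the largest difference. It also named the 3 genes most correlated over cells with each member found in at least 20% of cells. Positions and transcripts are from GENCODE M21 (GRCm38), and promoters from RefSeq (GRCm38.p6), with 8 of 10 members used.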

Additional observations from a re-analysis of the deposited data

Results flagged for a closer look

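Of 69 genes screened over the 4 cultures, 8 had 1 culture far from the other 3. In 4 of the 8 the other cultures were at 0 counts, which alone sets the gap, so their number cannot be set against the about 1 in 20 that chance gives. Among the tubulin isotypes, Tubb5 was low in culture M1 (511.5 CPM, against 855 to 877 CPM in the other cultures), and Tubb4a was high in culture M2 (39.3 CPM, against 24.6 to 26.5 CPM). Gm20388, a gene model that overlaps Tubb3 without sharing an exon base, was also high in culture M2 (86.1 CPM, against 43.5 to 50.1 CPM). Aldoc, an astrocyte marker, was high in culture F2 (660.6 CPM, against 205 to 272 CPM). Slc17a7 (0.191 CPM), Stmn2 (0.382 CPM) and Tbr1 (0.0955 CPM) were above 0 in culture M1 alone, and Gjb6 (0.0826 CPM) in culture F1 alone, each on 4 counts or fewer.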

How the results depend on the processing

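No member changed sign between cultures and whole DG under 12 alternatives. Tubb2a kept its call in 4 of them, Tubb2b gained one in 2, and Tuba1b lost it in 1, when whole DG M2 was left out. The cause was not tested. DESeq2 size factors moved the median log2 difference of all genes to -0.23 and upper quartile factors to 0.05. Upper quartile factors moved the log2 difference of Tubb2a to 0.54 and of Tubb2b to 0.43. Against a 2-fold difference, 4 members and 3671 genes were called higher, by construction of that test. A replicate block on the names F1 and M2, fitted without cultures F2 and M1, called 6098 genes higher and 7579 lower, and 6 members higher. Deviations of same-named libraries from their group means correlated at 0.0445 and 0.0631. The deviations of 2 whole DG libraries mirror each other, so these values cannot show whether the names pair the libraries. Leaving out 1 library at a time gave 5143 to 6418 genes higher and 5 to 8 members higher.

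Between the sexes, genes called higher in females numbered 1, with 97 without a filter, 21 by DESeq2 and 1 to 38 leaving out a culture; genes called lower numbered 3, with 176, 39 and 2 to 43. No member was called under any of the 9 alternatives. Without division by exon length, beta shares in cultures became 30.2% for Tubb2a and 24.0% for Tubb5, and by principal transcript length, chosen after seeing the data, 35.5% and 17.2%. Over both alternatives and the 10 members, 6 of 20 shares moved beyond 1 SD in cultures and 16 of 20 in whole DG. The cluster ratios stayed within their counting intervals under all 3 alternatives, which were thinning, a mean over cells and the mitochondrial limit. Thinning keeps expected shares, the mean uses the same cells, and the limit left out 64 of the 14912 cells, so this was a weak check. The alpha split is limited by shared reads, and rare isotypes by few UMIs.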
